A study of Mus musculus with 48 samples.

Results

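The proteasome genes described here are the 45 protein-coding genes, of 54532 genes listed in the count table, whose symbols begin with Psma, Psmb, Psmc, Psmd or Psme followed by a number. By their known roles, 31 of them encode constitutive subunits: the Psma1 to Psma7 alpha ring, the structural beta subunits Psmb1 to Psmb4, the catalytic beta subunits Psmb5, Psmb6 and Psmb7, the Psmc1 to Psmc6 ATPases, and 11 further Psmd subunits of the regulatory cap. A group of 5 belongs to the immunoproteasome: the catalytic subunits Psmb8, Psmb9 and Psmb10 and the activator subunits Psme1 and Psme2. The other 9 are counted apart: the activators Psme3 and Psme4, the assembly chaperones Psmd5, Psmd9 and Psmd10, the testis subunit Psma8, the thymus subunit Psmb11, the Psme2 copy Psme2b, and Psmc3ip, a meiotic recombination protein that is no subunit. After a filter on low counts, 44 of the 45 were tested among 19977 genes. Psmb11 had 0 counts in all 48 libraries and was not tested.

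The proteasome is the main protease that degrades ubiquitin-tagged proteins in the cytosol and nucleus. Proteins are unfolded by the ATPases of the regulatory cap and threaded into a barrel whose catalytic beta subunits cut them into peptides. Under interferon, and constantly in lymphocytes and other immune cells, Psmb8, Psmb9 and Psmb10 take the places of Psmb5, Psmb6 and Psmb7 in newly built barrels, and the Psme1-Psme2 activator caps them, which favors peptides presented on MHC class I. In fat cells, the transcription factor Nfe2l1 is known to raise the constitutive subunits when proteasome activity is limiting.

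RNA was sequenced from inguinal (subcutaneous) white adipose tissue of male mice labelled C57BL/6 (C57BL/6J in the study's methods) and 8 months old, fed ad-lib or by twice-a-night (TAN) feeding, in which food is offered in a pair of windows each night. The 48 libraries comprise 4 for each of the 2 diets at each of 6 labelled times (8AM, 12PM, 4PM, 8PM, 12AM and 4AM), with 15636378 to 29913310 counts per library, and no other treatment or genotype is given for either diet. The series text calls the sample the stromal vascular fraction of the depot and the study's methods describe whole tissue, and adipocyte markers were present in every library, with a sum over 6 markers of 1746 to 17790 CPM (counts scaled to library size). The labels number the 4 libraries of a group without saying that they come from separate animals, so p-values measure the spread between these libraries, which may be technical. Times are given as the count table labels them. For 979 genes with values in a sheet supplied with the study, all 48 libraries matched the column of the same name listed 12 h apart from the count table's label, and 0 matched at the same time.

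Several libraries stood apart in their markers of other cells. The sum of 10 lymphocyte markers was 8.21 to 37.1 CPM in 10 libraries (4 ad-lib and 6 TAN) and 309.4 to 2303 CPM in the other 38, with none of the 4 libraries of TAN at 4PM above 314 CPM and none of the 4 of ad-lib at 4PM below 919.5 CPM. TAN libraries 1 and 2 of 8PM had adipocyte marker sums of 2492 and 1746 CPM, against 10550 and 17790 CPM in TAN libraries 3 and 4. The share of counts in genes of the annotation's TEC class, loci whose transcripts still await laboratory evidence, was 0.0294% to 0.0394% in TAN at 8PM and 0.0807% to 0.104% in ad-lib at 8PM. In bulk tissue, fewer cells of a type and less RNA per cell cannot be told apart.

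Promoter sequences from RefSeq (GRCm38.p6, 250 bases before to 50 after the annotated start) were held for 38 of the 45 genes. Among them were 25 constitutive and all 5 immunoproteasome genes. The antioxidant response element core TGACNNNGC, the kind of site that Nfe2l1 binds, was searched on both strands and found in 12.4% of 32851 promoters and in 4 of the 25 constitutive ones (Psmb5, Psmb6, Psmc6 and Psmd12). It was found in 0 of the 5 immunoproteasome promoters. The interferon-stimulated response element core (GAAA, any 2 bases, GAAA) was found in 3.44% of all promoters, in the constitutive genes Psmb3 and Psmd4 and, of the immunoproteasome genes, in Psme1. The NF-kappaB motif (GGG, any 5 bases, CC) was present in 16 of 25 constitutive and 3 of 5 immunoproteasome promoters (50.8% of all), CCAAT in 10 and 1 (37.4%), and the E-box CACGTG in Psma4 and Psmb10 (7.15%). Matches of different motifs may overlap, and a match describes letters only. The 250 bases before the RefSeq start are shown for Psmb5 (chr14:54617996-54618245, minus strand) and Psmb6 (chr11:70525107-70525356, plus strand), the catalytic genes with an antioxidant core, for Psmd4 (chr3:95042615-95042864, minus strand), a constitutive gene with an interferon core, and for Psmb8 (chr17:34197945-34198194, plus strand), an immune gene with neither in its window. Each is written 5′ to 3′ with matches of either core, on either strand, in capitals. The Psmb8 stretch lies inside the gene model of the count table, which starts at base 34197721. It therefore does not cover the bases before that start.
Psmb5: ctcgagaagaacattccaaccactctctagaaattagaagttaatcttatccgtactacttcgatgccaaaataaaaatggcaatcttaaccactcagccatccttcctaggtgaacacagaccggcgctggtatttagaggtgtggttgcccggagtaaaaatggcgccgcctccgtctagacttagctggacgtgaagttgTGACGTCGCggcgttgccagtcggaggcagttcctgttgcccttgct
Psmb6: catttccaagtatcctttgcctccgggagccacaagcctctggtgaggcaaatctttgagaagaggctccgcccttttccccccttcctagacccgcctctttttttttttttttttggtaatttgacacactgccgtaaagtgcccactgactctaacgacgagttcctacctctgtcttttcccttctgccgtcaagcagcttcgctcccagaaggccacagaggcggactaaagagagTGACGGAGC
Psmd4: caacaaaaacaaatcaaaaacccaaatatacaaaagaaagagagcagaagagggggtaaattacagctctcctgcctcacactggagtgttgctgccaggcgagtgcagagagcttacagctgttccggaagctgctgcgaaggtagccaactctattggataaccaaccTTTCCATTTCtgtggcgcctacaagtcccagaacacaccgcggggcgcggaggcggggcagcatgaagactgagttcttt
Psmb8: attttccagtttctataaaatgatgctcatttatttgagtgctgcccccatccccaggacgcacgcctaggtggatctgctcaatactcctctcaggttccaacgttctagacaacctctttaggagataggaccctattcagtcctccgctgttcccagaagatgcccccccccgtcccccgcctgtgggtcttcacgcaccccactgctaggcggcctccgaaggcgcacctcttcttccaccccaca

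Levels were compared between genes per kilobase of gene model, as the mean ± SD over all 48 libraries. The highest was the alpha subunit Psma6 at 141 ± 43.3 CPM per kb, followed by Psmb4, a structural beta subunit, at 103 ± 28.9 and Psmb5, which carries the chymotrypsin-like activity, at 99.6 ± 31.6. Psmb4 and Psmb5 differed by less than either SD, and Psma6 exceeded Psmb4 by less than its own SD. The lowest constitutive subunit was the lid subunit Psmd11 at 10.4 ± 1.88 CPM per kb.

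The 3 immune catalytic genes did not stand in the same relation to the genes they replace. Psmb8 averaged 49.6 ± 28.6 CPM per kb against 99.6 ± 31.6 for Psmb5, and Psmb9 averaged 25.1 ± 12.5 against 77.4 ± 23.2 for Psmb6, the caspase-like subunit. Psmb10 averaged 57.0 ± 21.1 CPM per kb, above the 29.5 ± 10.6 of Psmb7, the trypsin-like subunit. Psme1 and Psme2 averaged 68.2 ± 33.1 and 78.3 ± 30.1, Psme3 33.8 ± 4.59 and Psme4 12.9 ± 3.45. Psma8 was near the limit of detection, at 0.355 CPM per kb and 0 to 55 counts per library. Psmc3ip was low, at 1.38 CPM per kb and 8 to 145 counts.

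At 4PM, constitutive subunits were higher under TAN feeding in every part of the complex, while no immunoproteasome gene passed the test. Of the 44 genes tested, 26 rose and 0 fell at an adjusted p under 0.05 (quasi-likelihood F-test of edgeR, Benjamini-Hochberg adjusted across the whole table), against 6.54% of all genes rising and 8.77% falling. They were all 3 constitutive catalytic subunits, 6 of 6 ATPases, 5 of 7 alpha subunits, 3 of 4 structural beta subunits, 8 of 11 further cap subunits and the chaperone Psmd10. All 31 constitutive subunits had a positive fold change, with a median of 0.62 (log2), beside a median of -0.09 over all genes. In 26 of the 31, and in 27 of the 44 tested, each TAN library was above each ad-lib library, which was so for 12.8% of all genes.

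Of the genes that passed, Psmb7 had the largest fold change. It was at 73.0, 70.1, 51.5 and 59.9 CPM in the 4 ad-lib libraries and at 165, 102, 145 and 110.2 CPM in the 4 TAN libraries (log2 fold change 1.04 ± 0.28 SE, adjusted p = 0.0156). The groups did not overlap, and TAN libraries 1 and 3 were the highest. Psmb5 was at 61.8, 60.3, 53.0 and 43.5 CPM in ad-lib and at 105, 88.8, 133 and 87.6 CPM in TAN (log2 fold change 0.92 ± 0.26 SE, adjusted p = 0.0192). Psmb6 was at 114, 102, 97.2 and 81.0 CPM in ad-lib and at 219, 134, 221 and 127 CPM in TAN (log2 fold change 0.83 ± 0.23 SE, adjusted p = 0.0191). Neither pair of groups overlapped. With Psmb7, these are the subunits that cut the peptide chain.

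In the cap, the ATPase Psmc5 was at 106, 95.1, 85.8 and 84.8 CPM in ad-lib and at 201, 134, 194 and 150.5 CPM in TAN (log2 fold change 0.87 ± 0.19 SE, adjusted p = 0.00776). The ubiquitin receptor Psmd4 was at 110.5, 111, 95.2 and 103 and at 174, 146, 172 and 152 CPM (log2 fold change 0.62 ± 0.13 SE, adjusted p = 0.00776). Both were free of overlap, and Psmd4 had the smaller spread. Psmd14, the deubiquitinase that strips the chain from the substrate, had a log2 fold change of 0.88. In the barrel, the alpha subunit Psma6 was at 135, 126, 117 and 109 CPM in ad-lib and at 240.3, 170.5, 260.3 and 188 in TAN (log2 fold change 0.82 ± 0.22 SE, adjusted p = 0.0172). The structural subunit Psmb3 was at 98.8, 97.0, 90.4 and 76.8 and at 161, 112, 181 and 124 CPM (log2 fold change 0.67 ± 0.23 SE, adjusted p = 0.0411). Again no TAN library fell within the ad-lib range. Psmd10, which helps assemble the base of the cap, was at 20.4, 23.1, 23.8 and 15.2 CPM in ad-lib and at 40.6, 24.7, 44.7 and 20.5 CPM in TAN, with overlap (log2 fold change 0.66 ± 0.23 SE, adjusted p = 0.0419).

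The 3 immune catalytic subunits gave values below 0 at 4PM, without passing the test. Psmb8 was at 143, 114, 159 and 96.8 CPM in ad-lib and at 55.0, 60.0, 125 and 47.5 CPM in TAN (log2 fold change -0.83 ± 0.42 SE, adjusted p = 0.160). TAN library 3 was within the ad-lib range and the other 3 were below it, and library 3 was also the TAN library with the most lymphocyte marker counts. Psmb9 (log2 fold change -0.57 ± 0.33 SE, adjusted p = 0.229) and Psmb10 (log2 fold change -0.35 ± 0.29 SE, adjusted p = 0.419) also had TAN library 3 highest, at 92.4 and 108 CPM. Psme1 and Psme2 had log2 fold changes of -0.10 and 0.14, with overlapping groups. The direction turned with the lymphocyte markers as a covariate, where Psmb8, Psmb9 and Psmb10 were at 0.23, 0.21 and 0.20 (log2), and the median of the 5 immunoproteasome genes went from -0.35 to 0.23. It was 0.12 with the adipocyte markers and -0.66 with the TEC share, and none of the 5 passed the test in any of these covariate fits. With 4PM fitted on its own, 19 members were called, 18 higher and 1 lower. The lower one was an immunoproteasome gene, and the median of the 5 was -0.42.

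The 4PM groups also differed in the other content of the libraries. The adipocyte marker sum was 4654 to 7945 CPM in ad-lib and 11070 to 13250 CPM in TAN, and the TEC share 0.0882% to 0.110% in ad-lib and 0.0327% to 0.0847% in TAN, both without overlap. For 5 of 6 adipocyte markers each TAN library was above each ad-lib library (median log2 fold change 0.84), as for 12.8% of all genes. Of the 6, 0 passed the test. With the lymphocyte markers as a covariate 0 of the 44 genes were called (25 at an unadjusted p under 0.05), with the TEC share 0 (17 unadjusted), and with the adipocyte markers, an alternative added after the data were seen, 3 (Psmc5, Psmd4 and Psmd10). The median log2 fold change of the 31 constitutive subunits was then 0.47, 0.28 and 0.50, beside -0.09, -0.01 and -0.15 over all genes. All 10 lymphocyte markers were lower in each TAN library than in any ad-lib library at 4PM, as were 3556 of the 19977 genes tested. Of the 10, 3 passed the test (median -3.63), beside 8.77% of all genes falling. The lymphocyte markers, the TEC share and the adipocyte sum thus did not overlap between the diets at 4PM. The covariate fits could tell diet and covariate apart only by the spread within groups. The share of all genes called in these fits was not counted, so fewer calls are not read as particular to the proteasome genes. Without ad-lib library 3, 3 genes were called (Psmc5, Psmd4 and Psmd14), without ad-lib library 4, 10, and without TAN library 1, 6. Without TAN library 3 the count was 15.

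**Figure D1:**
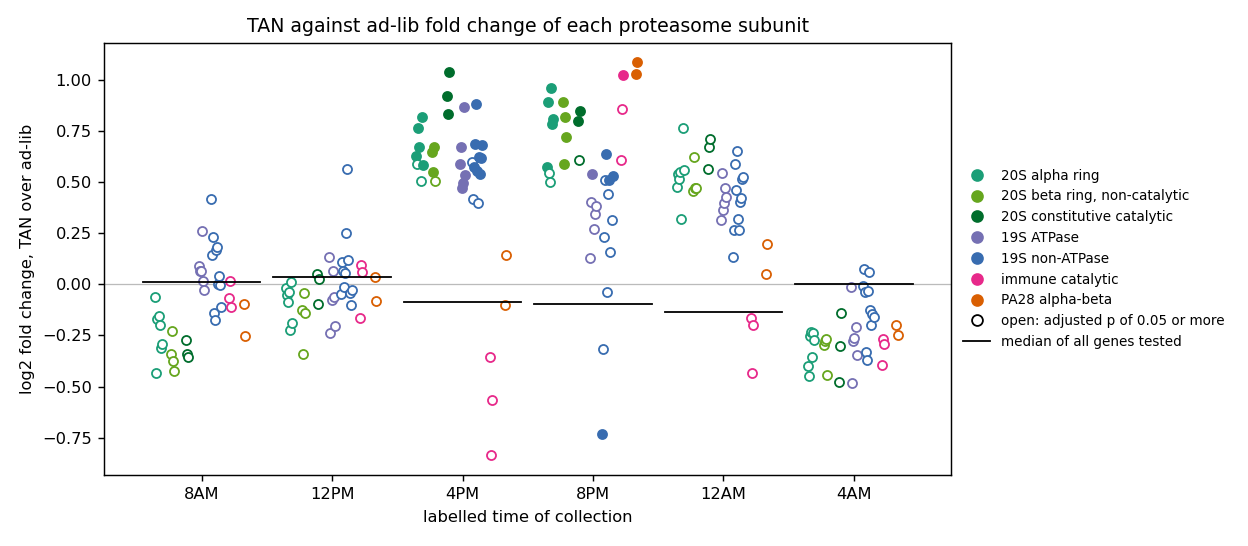
TAN over ad-lib log2 fold change (y axis) of 36 proteasome subunits at each labelled time (x axis), colored by role, with filled points for an adjusted p under 0.05 and a black line for the median of all genes tested. The 31 constitutive subunits lie above 0 at 4PM and 12AM, and the 3 immune catalytic subunits lie below 0 at 4PM and between 0.61 and 1.02 at 8PM.

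At 8PM, subunits of the barrel were higher under TAN feeding, some of the immunoproteasome was higher in part of the libraries, and Psmd1 and Psme4 were lower. Of the 44 genes, 20 rose and 2 fell, against 3.76% of all genes rising and 7.91% falling. Among constitutive subunits, those that rose were 5 of 7 alpha subunits, 4 of 4 structural beta subunits and 2 of 3 catalytic subunits, but 1 of 6 ATPases and 3 of 11 further cap subunits. The median log2 fold change was 0.78, 0.77 and 0.80 in the barrel's groups, and 0.36 for the ATPases and 0.31 for the further cap subunits, beside -0.10 over all genes. Each TAN library was above each ad-lib library for 20 of the 44 genes and for 4.55% of all genes.

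The structural subunit Psmb1 was at 175, 200.4, 182 and 209 CPM in ad-lib and at 372, 373, 353 and 324 CPM in TAN (log2 fold change 0.89 ± 0.22 SE, adjusted p = 0.0109). The alpha subunit Psma5 was at 58.1, 77.9, 59.0 and 72.0 and at 152, 138, 103 and 125 CPM (log2 fold change 0.96 ± 0.22 SE, adjusted p = 0.00711). In both, the groups stood well apart. Psmb5 was at 57.8, 79.7, 58.5 and 90.6 CPM in ad-lib and at 138, 123, 98.1 and 139 in TAN (log2 fold change 0.80 ± 0.26 SE, adjusted p = 0.0382), and Psmb7 at 59.2, 81.2, 59.7 and 83.3 and at 72.4, 95.6, 159 and 183 CPM (log2 fold change 0.85 ± 0.28 SE, adjusted p = 0.0395). For Psmb7 the TAN libraries split, with libraries 1 and 2 near the ad-lib range and libraries 3 and 4 far above it. Psmb6 was at 100.1, 139, 109 and 147 CPM in ad-lib and at 187, 168, 175 and 223 in TAN, without overlap, and missed the threshold (log2 fold change 0.61 ± 0.23 SE, adjusted p = 0.0736). In the cap, the ATPase Psmc3 was at 116, 120.4, 101 and 118 and at 169.6, 154, 164 and 175 CPM (log2 fold change 0.54 ± 0.13 SE, adjusted p = 0.0103), and Psmd4 at 101, 102, 101 and 128 and at 148, 185, 139 and 142 CPM (log2 fold change 0.51 ± 0.13 SE, adjusted p = 0.0143). The chaperone Psmd10 was at 25.1, 26.5, 32.4 and 27.8 CPM in ad-lib and at 59.0, 56.3, 43.7 and 37.2 in TAN (log2 fold change 0.81 ± 0.23 SE, adjusted p = 0.0197). None of these cap and chaperone genes overlapped between diets.

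The genes that fell at 8PM were Psme4 and Psmd1. Psme4, the PA200 activator, was at 99.5, 109, 107 and 121 CPM in ad-lib and at 36.0, 60.7, 54.7 and 79.9 CPM in TAN (log2 fold change -0.92 ± 0.26 SE, adjusted p = 0.0205), with every TAN library below the ad-lib range. Psmd1, a scaffold of the base of the cap, was at 105, 129, 108 and 152 and at 57.8, 40.3, 85.1 and 114 CPM (log2 fold change -0.73 ± 0.22 SE, adjusted p = 0.0285). TAN library 4 of Psmd1 lay within the ad-lib range. Other cap subunits at negative or near-0 values did not pass, such as the base scaffold Psmd2 at -0.04 and Psmd11 at -0.32 (log2).

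For the immune subunits at 8PM, TAN libraries 1 and 2 stood apart from libraries 3 and 4. Psmb8 was at 162, 168, 157 and 117 CPM in ad-lib and at 439, 449.9, 133 and 72.5 CPM in TAN (log2 fold change 0.86 ± 0.42 SE, adjusted p = 0.177). Psmb9 was at 95.3, 97.9, 89.9 and 83.8 and at 253, 298, 116 and 76.7 CPM (log2 fold change 1.02 ± 0.33 SE, adjusted p = 0.0399), and Psmb10 at 109, 111, 105 and 87.4 and at 234, 234, 76.5 and 84.5 CPM (log2 fold change 0.61 ± 0.29 SE, adjusted p = 0.161). In all 3, TAN libraries 1 and 2 were above the ad-lib range and TAN library 4 was below it. The activator subunit Psme1 was at 163, 159, 163 and 116 CPM in ad-lib and at 436, 493, 175 and 122 CPM in TAN (log2 fold change 1.03 ± 0.30 SE, adjusted p = 0.0227). Psme2 was at 127, 135, 112 and 117 and at 304, 385, 193 and 158 CPM (log2 fold change 1.08 ± 0.25 SE, adjusted p = 0.00657). Of the 5, Psme2 alone had each TAN library above each ad-lib library. Psme2b, a near copy of Psme2 whose reads may be shared with it, was at 38.8, 41.7, 47.0 and 54.9 and at 151, 109.6, 45.5 and 46.7 CPM (log2 fold change 0.95 ± 0.30 SE, adjusted p = 0.0372).

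TAN libraries 1 and 2 of 8PM are those with few adipocyte marker counts, and their lymphocyte marker sums of 2146 and 2303 CPM stood beside 899 and 37.1 CPM in libraries 3 and 4. In ad-lib at 8PM the lymphocyte sums were 571 to 1865 CPM and the adipocyte sums 4253 to 10370 CPM. The adipocyte sums of TAN libraries 3 and 4, 10550 and 17790 CPM, were above that range. Leaving out TAN libraries 1 and 2 was an alternative added after the data were seen. It took the median immunoproteasome log2 fold change from 1.02 to 0.01 and its calls from 3 to 0. The constitutive median was then 0.67 and 11 constitutive subunits were called. This fit thus compared TAN libraries of higher adipocyte sums with ad-lib. Psmd1 and Psme4 then missed the threshold at log2 fold changes of -0.28 and -0.67. With the TEC share as a covariate, 0 of the 44 genes were called (4 at an unadjusted p under 0.05). The constitutive median was then -0.06, beside -0.08 over all genes. The TEC shares of the diets did not overlap at 8PM, so this fit could separate diet from TEC share only by the spread within groups. With each time fitted on its own, 0 were called (25 unadjusted). With the lymphocyte markers as a covariate 24 were called, all 5 immunoproteasome genes among them. The adipocyte markers as a covariate, also added after the data were seen, gave 27 calls and a constitutive median of 0.55. The share of all genes called in these fits of 8PM was not counted. At 8PM 3 of 4 endothelial and 1 of 6 macrophage markers fell, beside 7.91% of all genes. Psme2 was called in 8 of 8 fits that left out a library, Psme1 in 5 and Psmb9 in 2. Leaving out any 1 library gave 10 to 19 calls in all, and it gave 10 to 12 without ad-lib library 1, 2 or 3 or TAN library 1 or 2.

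**Figure D2:**
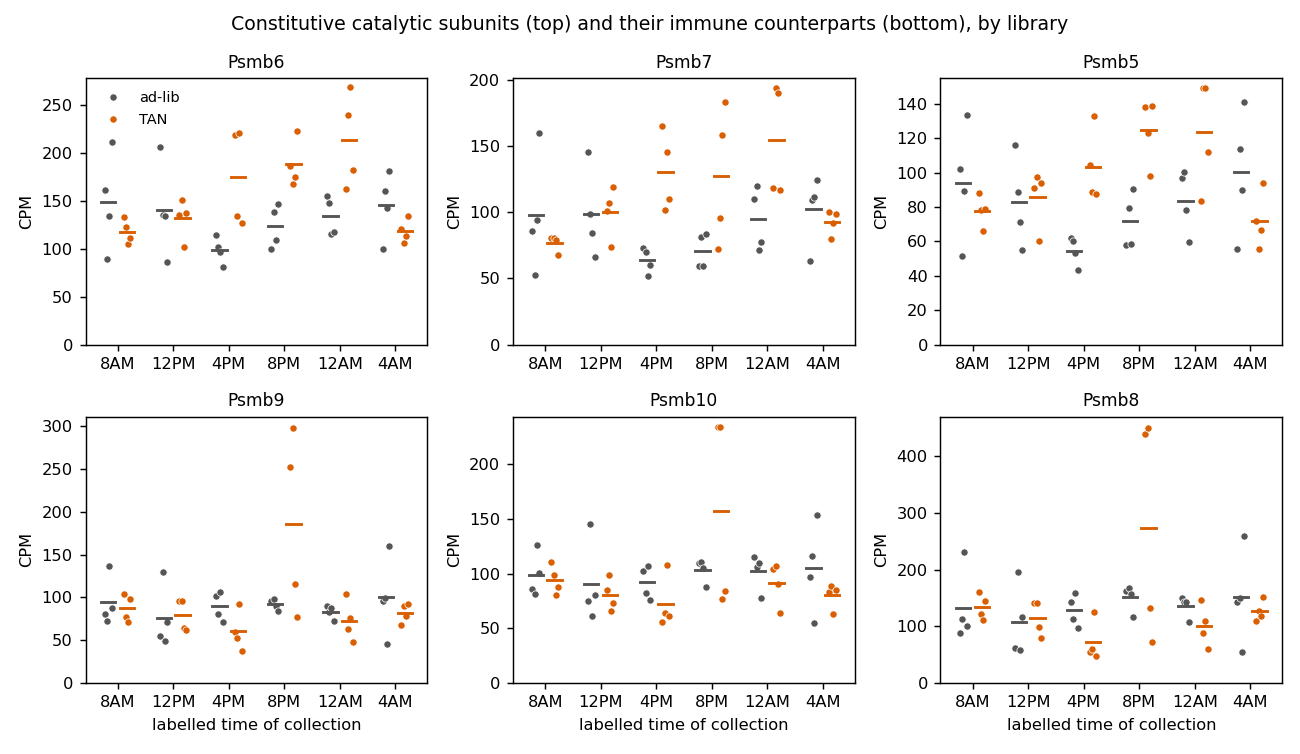
CPM (y axis) of the 3 constitutive catalytic subunits (top) and of the immune subunit that replaces each (bottom) at each labelled time (x axis), with a point per library and a bar for the mean of 4. The TAN points of Psmb5, Psmb6 and Psmb7 lie above the ad-lib points at 4PM, and the high means of Psmb8, Psmb9 and Psmb10 in TAN at 8PM come from 2 libraries.

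At 12AM no member passed the adjusted threshold, beside 0.15% of all genes. The constitutive subunits all had positive fold changes, with a median of 0.47 (log2) beside -0.14 over all genes. At an unadjusted p under 0.05, 29 of the 44 genes were higher in TAN, 26 of them constitutive, against 8% of all genes. Psmb6 was at 155, 148, 116 and 118 CPM in ad-lib and at 162, 239.6, 269 and 183 CPM in TAN (log2 fold change 0.67 ± 0.23 SE, adjusted p = 0.154), without overlap, as were 7 of the 44 genes and 3.59% of all genes. Psmb5 was at 96.7, 100.2, 78.5 and 59.7 and at 83.8, 149, 149.5 and 112 CPM and Psmb7 at 109.9, 120.2, 71.3 and 77.5 and at 118, 194, 190.1 and 117 CPM, with TAN libraries 2 and 3 highest in both. With the TEC share as a covariate 1 gene was left at an unadjusted p under 0.05 and the constitutive median was 0.10, and with the lymphocyte markers 19 genes and 0.37. DESeq2 called 9 members at 12AM, limma voom 0, and 8 were called without TAN library 1. Psmb8, Psmb9 and Psmb10 had log2 fold changes of -0.43, -0.20 and -0.16.

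At the other 3 times no member was called, beside 0.015% of all genes at 8AM, 0.0901% at 12PM and 0% at 4AM. At 8AM and 12PM, 0 and 1 of the 44 passed an unadjusted p under 0.05 in edgeR. Of the 19977 genes tested, 1314 and 1473 did. DESeq2 found 2 and 2 of the 44, and the constitutive medians in edgeR were -0.11 and -0.04 (log2). At 4AM, 29 of 31 constitutive subunits had negative fold changes, with a median of -0.26 beside 0.00 over all genes. With the TEC share as a covariate the median was -0.01 and 14 of the 31 were positive. There 4 of the 44 were lower at an unadjusted p under 0.05, against 1.74% of all genes (DESeq2 found 5, limma voom 1, the fit of 4AM alone 1 and the TEC covariate 1). Psmb5 was at 55.7, 114, 90.1 and 141 CPM in ad-lib and at 71.8, 55.7, 66.9 and 93.8 in TAN, so that the ad-lib libraries covered the whole TAN range.

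Averaged over the 6 times, 9 of the 44 genes were higher in TAN and 0 lower, against 2.68% of all genes higher. All 9 were constitutive: Psma6, the ATPases Psmc3 and Psmc4, and Psmd2, Psmd3, Psmd4, Psmd8, Psmd12 and Psmd14 of the cap. Their mean log2 differences ran from 0.18 ± 0.05 SE (Psmc3, adjusted p = 0.0422) to 0.32 ± 0.07 SE (Psmd3, adjusted p = 0.00952), and Psmd4 had the lowest adjusted p (0.25 ± 0.05 SE, adjusted p = 0.00453). No immunoproteasome gene was among them, at a median of -0.01. Leaving out single libraries gave 3 to 14 calls, and the TEC share as a covariate 3.

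The TAN effect itself differed between times for 23 of the 44 genes, against 8.98% of all genes. They were 21 constitutive subunits, Psme2 and Psmd10. With the lymphocyte markers as a covariate 11 were called, and with the TEC share 0 (7 unadjusted).

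Within each diet, the variation over time was tested separately. In ad-lib 0 of the 44 genes varied (0.0551% of all genes), with 4 at an unadjusted p under 0.05 (6.67% of all genes) in edgeR and 4 in DESeq2. In TAN 35 varied (23% of all genes): 25 constitutive, all 5 immunoproteasome and 5 others. Without TAN libraries 1 and 2 of 8PM, 24 constitutive and 0 immunoproteasome genes were called. A 24-h harmonic was called for 0 genes in ad-lib (0.0801% of all genes, 11 members and 11.4% of all genes unadjusted, 10 members in DESeq2) and for 26 in TAN (19.8% of all genes), of which 22 were constitutive. With the TEC share as a covariate the harmonic was called for 0 genes in TAN (3 unadjusted) and variation over time for 11.

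The called constitutive harmonics in TAN had amplitudes of 0.26 to 0.49 (log2) and fitted peaks between 19.2 and 20.9 h on the labelled clock. By group means, 19 of the 31 constitutive subunits were highest at 12AM in TAN and 8 at 8PM, and 15 were lowest at 4AM and 13 at 8AM. In ad-lib 29 of the 31 were lowest at 4PM and 21 were highest at 4AM. The difference between the highest and lowest time had a median of 0.75 (log2) in TAN and 0.45 in ad-lib over these 31 genes, beside 1.31 and 0.83 over all genes. The summed constitutive CPM was 3353, 3190, 2907 and 2778 in ad-lib at 4PM and 5396, 4019, 5271 and 4410 in TAN, and 3051, 4405, 4254 and 4798 and 3572, 3194, 3522 and 3684 at 4AM. The ad-lib libraries were spread more widely at 4AM than at 4PM.

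**Figure D3:**
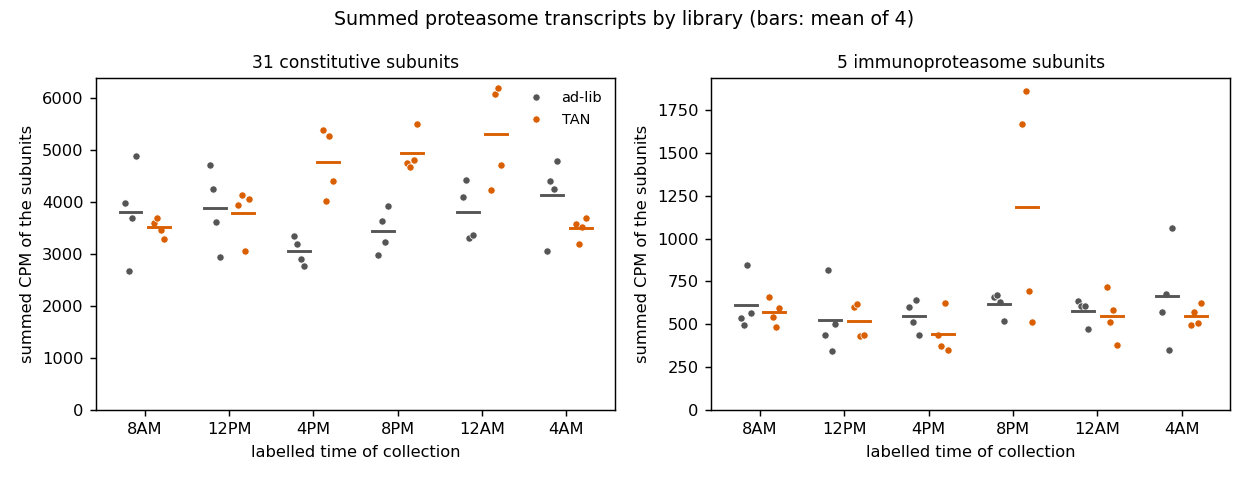
Summed CPM (y axis) of the 31 constitutive (left) and 5 immunoproteasome (right) subunits at each labelled time (x axis), with a point per library and a bar for the mean of 4. Constitutive sums in TAN exceed all ad-lib sums at 4PM and 8PM, and 2 TAN libraries of 8PM, at 1667 and 1860 CPM, set the high immunoproteasome mean there.

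The constitutive sum also moved with the TEC share within groups. In 9 of the 12 groups the library with the lowest TEC share had the highest constitutive sum, and in 9 the library with the highest share had the lowest sum. In ad-lib at 8AM, for example, the TEC shares were 0.0770, 0.115, 0.0458 and 0.0325% and the constitutive sums 3975, 2664, 3694 and 4880 CPM. The part of the TEC share in the diet differences was not tested beyond the covariate fits given above.

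**Figure D4:**
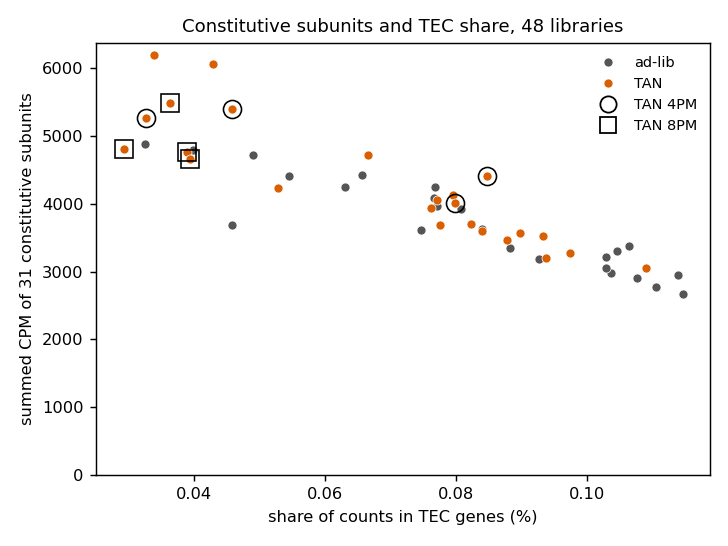
Summed CPM of the 31 constitutive subunits (y axis) against the share of counts in TEC genes in percent (x axis), with a point per library and marks on TAN at 4PM and 8PM. Sums range from 2664 to 6203 CPM, the 4 marked TAN libraries of 8PM have shares of 0.0294% to 0.0394%, and libraries of low share tend to lie high in both diets.

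The balance of immune and constitutive catalytic subunits was expressed as the share of Psmb8, Psmb9 and Psmb10 in the summed CPM per kb of all 6 catalytic genes. It ran from 22.3% to 54.3% over the 24 ad-lib libraries (median 44.6%) and from 19.6% to 60.1% over the 24 TAN libraries (median 38.3%). At 4PM it was 48.1, 44.0, 54.3 and 47.6% in ad-lib and 19.6, 26.9, 30.3 and 24.4% in TAN, with no overlap. At 8PM it was 52.5, 45.1, 50.5 and 36.5% in ad-lib and 57.2, 60.1, 33.4 and 22.9% in TAN, where the TAN libraries spanned more than the ad-lib range on both sides. At 12AM it was 39.7, 37.8, 45.3 and 40.9% and 39.9, 24.2, 23.7 and 21.9%, and TAN library 1 alone was at the ad-lib level. These shares are given as a description with no test.

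The share moved with the lymphocyte markers across both diets. In the 10 libraries with marker sums of 8.21 to 37.1 CPM the immune share was 19.6% to 28.6%, with a median of 23.8%, and in the other 38 libraries it was 23.7% to 60.1%, with a median of 42.6%. The 10 libraries came from ad-lib at 8AM, 12PM and 4AM and from TAN at 4PM, 8PM and 12AM. The immunoproteasome sum was 345.3 to 568 CPM in them and 431 to 1860 CPM in the others, so immune subunits were present in libraries with few lymphocyte markers too. The constitutive sum had a median of 4718 CPM in the 10 libraries and 3658 CPM in the others. The part of lymphocyte content in the diet differences of the share was not tested.

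**Figure D5:**
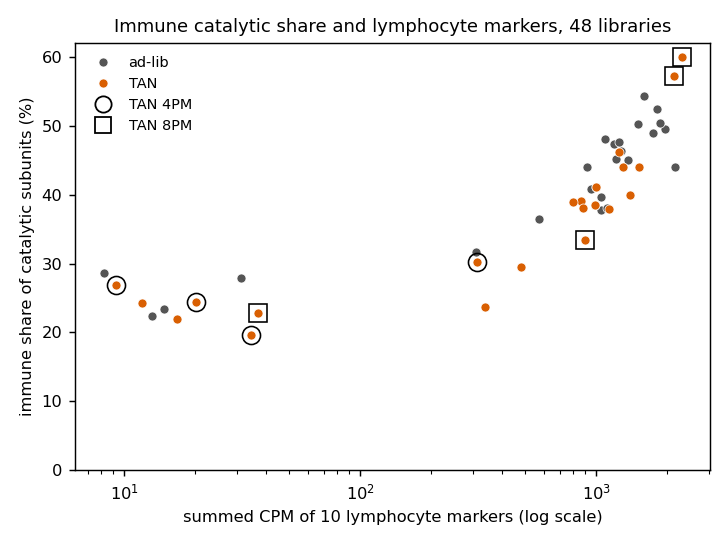
Immune share of the catalytic subunits in percent (y axis) against the summed CPM of 10 lymphocyte markers on a log scale (x axis), with a point per library and marks on TAN at 4PM and 8PM. The 10 libraries under 40 CPM lie between 19.6% and 28.6%, and the 2 highest shares, 57.2% and 60.1%, are TAN libraries of 8PM.

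Genes that work with the proteasome were read from fixed lists. Of a list of assembly chaperones and an inhibitor, 3 of 9 tested rose at 4PM (6.54% of all genes did) and 0 fell. They were Psmg1 (log2 fold change 0.84), Pomp (0.65), which is needed to mature the barrel, and Psmd10, a member already counted above. At 8PM 3 of 9 rose (3.76% of all genes did), Psmg4 (1.24), Pomp (0.85) and Psmd10. Of 12 other proteasome-associated proteins, 3 rose at 4PM, the small cap subunit Sem1 (0.72) and the ubiquitin shuttles Rad23b (0.35) and Ubqln1 (0.56). At 8PM 1 rose, Sem1 (0.78), and 1 fell (7.91% of all genes did), Ecpas (-0.81), an adaptor of the complex. Of 11 genes of ubiquitin and its activation, 4 rose at 4PM, among them the conjugating enzymes Ube2l3 (0.56, from 90.0 to 133 CPM as group means), Ube2r2 (0.61) and Ube2k (0.49). At 8PM 3 rose, among them the conjugating enzymes Ube2d3 (0.53) and Ube2l3 (0.48). Without TAN libraries 1 and 2 of 8PM, 2 genes of the chaperone list rose and 0 fell there. Of the other associated proteins 0 then rose and 0 fell, and of the ubiquitin list 2 rose and 1 fell.

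Of the 10 genes of the Nfe2l1 pathway, 0 passed at 4PM. At 8PM the small Maf partner Maff rose (1.13, from 5.43 to 11.9 CPM), while Ddi2, the protease that activates Nfe2l1, and Sel1l, of the degradation machinery of the endoplasmic reticulum, fell (-0.92 and -0.67). Of all genes, 3.76% rose and 7.91% fell at 8PM. Of 11 genes of MHC class I presentation, 0 passed at 4PM. At 8PM 1 rose, B2m, the light chain of MHC class I (0.75, from 2111 to 3546 CPM). Another 1 fell, the peptide-trimming enzyme Erap1 (-0.57). With 1 gene each way beside these shares of all genes, no change of the list is read from them. Without TAN libraries 1 and 2 of 8PM, 0 genes of the MHC class I list rose and 1 fell, with a median of -0.10 (log2). In the Nfe2l1 list 0 then rose and 1 fell, with a median of 0.07. Of 12 genes of interferon signalling, 5 fell at 4PM (8.77% of all genes did) and 0 rose, with the 4 lowest adjusted p in Jak2 (-1.09), Jak1 (-1.31), Irf9 (-0.92) and Irf8 (-2.53). Irf8 is also a gene of B cells and macrophages, and at 4PM the lymphocyte markers had a median of -3.63 and the 6 macrophage markers one of -1.01, with 1 of the 6 called lower. None of the 12 passed at 8PM, and 4 fell there without TAN libraries 1 and 2. With the lymphocyte markers or the TEC share as a covariate, 0 genes of the 6 lists were called at 4PM, and with the adipocyte markers 1, a chaperone. At 8PM 0 were called with the TEC share. These fits of the lists were added after the data were seen. The medians of the 6 lists at 4PM, in the order given, were 0.43, 0.37, 0.35, 0.20, -0.07 and -0.91 (log2), and at 8PM 0.61, 0.00, 0.15, -0.06, 0.30 and 0.10.

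The authors' own mean FPKM per group (fragments per kilobase, scaled to sequencing depth) carry no spread. They rescale the same libraries, so they are no independent support. They gave a higher TAN value for 31 of 31 constitutive subunits at 4PM, 29 at 8PM and 31 at 12AM. At 8AM, 12PM and 4AM they did so for 10, 9 and 2. The share of all genes with a higher TAN value by FPKM was not counted. For the 5 immunoproteasome genes TAN was higher in 1 at 4PM, 5 at 8PM and 2 at 12AM. Several members overlap another gene model, and the strand setting of the counting is not given in the sources used here, so reads of Psmb9 and Tap1, Psme1 and Emc9, Psmb7 and Nek6, Psmc3 and Slc39a13, Psmd13 and Sirt3, Psma2 and AW209491, and Psma3 and 3110056K07Rik may not be fully separable.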

How the data were processed

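RNA was sequenced from inguinal white adipose tissue in 48 libraries (poly-A selection, random hexamers). Per the labels and the deposited files, the authors counted fragments per gene and deposited raw counts, and they also deposited mean FPKM per group, a gene length and annotation per gene. The processing notes name TopHat 1.3.3, DESeq2 1.20.0, limma and edgeR and the builds mm9, mm10 and GRCm38, without roles. The aligner's role, the counting tool and the strand setting are not given in the sources used here. Columns with the authors' own comparisons were not used, and 0 columns of per-sample values were left unused.

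Counts as deposited were fitted in R 4.3.3 with edgeR 4.0.16 (TMM factors, filterByExpr with a minimum count of 10, robust quasi-likelihood) in 1 model of 12 diet-by-time groups. The contrasts were TAN against ad-lib at each time, their mean, their difference between times, and variation and a 24-h harmonic within each diet. P-values were Benjamini-Hochberg adjusted over 19977 genes and called under 0.05. SE is the absolute log2 fold change over the square root of F. CPM used TMM-scaled library sizes, and levels between genes were divided by gene length in kilobases. Total counts of 15636378 to 29913310 set the precision. The fit was tried on simulated counts without differences in tissue content between libraries. That trial checks the computation only and does not bear on the calls made here. Alternatives used DESeq2 1.42.0, limma 3.58.1 (voom), other filters and factors, covariates and left-out libraries.

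Members follow a symbol rule and all may be named. Per-library values were given for Psmb5 to Psmb10, Psme1 and Psme2 and, where members were called, for the called member of each role with the lowest adjusted p. Values per library of Psmd1 were added after they were seen. Pathway genes were named where called, at most 4 per list and time, and some items are not reported here. Members and lists were chosen with earlier results of these data known. Same-numbered ad-lib and TAN libraries of a time were checked for pairing over 5000 genes, with correlations of deviations over 0.1 in 10 of 24 pairs, so numbers were not taken as pairs. No 2 libraries held identical counts.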

Additional observations from a re-analysis of the deposited data

Results flagged for a closer look

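In 12 of 132 groups examined (8 genes and 3 sums or shares in 12 groups of 4 libraries), 1 library lay far from the other 3 by Dixon's ratio at the 95% level, which chance alone does in about 1 in 20 groups. Among immunoproteasome genes these were Psmb8 in ad-lib at 8AM (230.2 CPM in library 3 against 88.5 to 112 CPM), Psmb8 in TAN at 4PM (125 CPM in library 3 against 47.5 to 60.0 CPM), Psmb10 in TAN at 4PM (108 CPM in library 3 against 55.2 to 64.0 CPM), Psme1 in ad-lib at 8AM (201 CPM in library 3 against 119 to 129 CPM), Psme1 in ad-lib at 8PM (116 CPM in library 4 against 159 to 163 CPM) and Psme2 in ad-lib at 8AM (98.9 CPM in library 2 against 152 to 162 CPM). The others were Psmb7 in TAN at 8AM (67.4 CPM in library 4 against 79.3 to 80.3 CPM), the constitutive sum in TAN at 12PM (3060 CPM in library 3 against 3944 to 4126 CPM), the immune catalytic share in TAN at 12PM (29.5% in library 4 against 38.0 to 39.2%), the immunoproteasome sum in ad-lib at 12AM (471 CPM in library 4 against 608 to 633 CPM), the immune catalytic share in TAN at 12AM (39.9% in library 1 against 21.9 to 24.2%) and the immune catalytic share in TAN at 4AM (46.3% in library 2 against 38.1 to 39.0%).

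The TAN effect differed between the 6 labelled times for 23 of the 44 members by a test of the difference itself, as given in the report.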

How the results depend on the processing

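Counts of called members are given as reported first. At 4PM (26) they were 11 with no filter on low counts, 0 with the lymphocyte covariate, 0 with the TEC covariate, 3 with the adipocyte covariate and 1 with a log2 fold change beyond 1, and 3 to 27 without single libraries. At 8PM (22) they were 11 with no filter, 0 with each time fitted alone, 0 with the TEC covariate, 12 without TAN libraries 1 and 2 and 3 beyond a log2 fold change of 1, and 10 to 19 without single libraries. At 12AM (0) they were 1 with at least 10 counts in every library, 1 with RLE factors and 9 with DESeq2, and 0 to 8 without single libraries. For the mean over times (9) they were 3 with no filter, 3 with the replicate block, 3 with the TEC covariate, 16 without TAN libraries 1 and 2 of 8PM and 0 beyond a log2 fold change of 1, and 3 to 14 without single libraries, values of 4 and 5 among them. For the difference between times (23) they were 12 with no filter, 11 with the replicate block, 11 with the lymphocyte covariate and 0 with the TEC covariate, and 15 to 29 without single libraries. In TAN, the TEC covariate gave 11 members varying over time (35) and 0 harmonics (26), and leaving out single libraries gave 27 to 38 and 23 to 29. With the TEC covariate, 6 members called at 8PM turned to values below 0 (log2): Psma1 -0.0597, Psmb2 -0.0195, Psmb4 -0.0430, Psmb5 -0.0727, Psmb7 -0.0904 and Psmd14 -0.0559. With no filter more genes were tested, and leaving out a library gave fewer or more calls, depending on the library. The cause of these moves was not tested. The share of all genes called under each alternative was not counted.

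Same-numbered libraries were not shown to be paired, and the replicate block gave 20 calls at 4PM, 16 at 8PM and 0 at each other time. Counts under the remaining alternatives stayed within 1.5 times. At 8PM the median log2 fold change of all genes was -0.10 as reported, -0.45 with limma voom and 0.10 with at least 10 counts in every library, while the constitutive median was 0.54 and 0.59. The adipocyte covariate and the fit without TAN libraries 1 and 2 of 8PM were added after the data were seen.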
